A study of Mus musculus with 18 samples.

Results

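The subcortical maternal complex genes were described across 18 mouse libraries, 3 in each of 6 groups. The members were taken by name, by a rule that uses no measured value, as Nlrp5, Ooep, Tle6, Khdc3, Padi6, Nlrp2 and Zbed3, and were found by symbol in the deposited expression table. All 7 were found among 28252 genes with a TPM value, which is a transcript level per gene length that sums to 1000000 in each library, and all 7 had counts among 53715 counted genes. The groups were oocytes of primordial follicles, oocytes of primary follicles and oocytes at metaphase II (MII), each from sham and from NTY animals. All came from mice of the strain given as C57Bl/6j x CBA/J, and all were marked in vivo. The labels leave NTY unexplained and give no age, so the comparison is called NTY against sham throughout. For cells cut from tissue by laser, RNA of several caps was pooled by stage, amplified from very little material and captured for coding sequence, whereas collected oocytes went through Smart-seq II. The 12 libraries of primordial and primary follicles were taken as microdissected and the 6 MII libraries as Smart-seq II. Stage and library method therefore cannot be told apart wherever MII is set against the others. Nothing states that replicates came from separate animals, so p-values measure the spread between these libraries, which may be technical.

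The subcortical maternal complex is a multiprotein assembly beneath the membrane of the growing oocyte that is passed on to the early embryo. Its components are made from maternal genes during oocyte growth, are stored, and are needed for the first cleavages. It is closely tied to the cytoplasmic lattices, the fibrous stores of maternal protein that fill the mouse oocyte. Nlrp5, also called Mater, encodes an NLR family protein of the core, and Ooep (Floped) and Khdc3 (Filia) encode KH domain proteins that bind it. Tle6 encodes a relative of the Groucho corepressors that completes the core. Padi6 encodes an oocyte peptidylarginine deiminase family protein needed for the lattices. Nlrp2 encodes a second NLR family protein, and Zbed3 encodes a BED zinc finger protein that joins the complex and acts in division symmetry of the zygote.

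On GRCm38 with GENCODE M21, the members lie on chromosomes 4, 7, 9, 10 and 13 and each is a protein-coding gene. Nlrp5 (ENSMUSG00000015721) spans chr7:23385889-23441922 on the plus strand with 16 exon blocks, and Nlrp2 (ENSMUSG00000035177) spans chr7:5298547-5351035 on the minus strand with 13. Ooep (ENSMUSG00000032346) is short, at chr9:78376109-78378725 on the minus strand with 3 exon blocks. Khdc3 (ENSMUSG00000092622) lies on the same chromosome at chr9:73101836-73104438 on the plus strand with 4. Tle6 (ENSMUSG00000034758) spans chr10:81590904-81601073 on the minus strand with 15 exon blocks. Padi6 (ENSMUSG00000040935) spans chr4:140727355-140742643 on the minus strand with 18. Zbed3 (ENSMUSG00000041995) spans chr13:95323612-95337841 on the plus strand with 4. Khdc3 shares 790 exonic bases, 38.5% of its exon length, with the same-strand gene Gm20509. Its reads there could have been split, counted for both or left uncounted. Both genes had 22 counts in primary sham replicate 2 and 69 in primary NTY replicate 3. Both were at 0 in primordial NTY replicate 3 and primary NTY replicate 2. In the other microdissected libraries Gm20509 was higher. It had 738 and 634 counts in primary sham replicates 1 and 3, against 52 and 54 for Khdc3. In primordial sham it had 131, 1806 and 571, against 0, 170 and 20. Every Khdc3 value below is uncertain because of the shared bases. Nlrp2 shares 105 exonic bases, 2.99% of its exon length, with the opposite-strand pseudogene Gm18757, which reached 18 counts at most in an MII library.

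The promoters of 4 members are shown, which differ in the letters that oocyte transcription factors are known to read. They are Zbed3, the member with the highest level in MII, and the 3 members with a NOBOX element in the window. Those of Tle6, Khdc3 and Nlrp2, which hold no such element, are not shown. FIGLA binds E-boxes (CANNTG) and NOBOX binds TAATTG or TAATTA, and both are needed for oocyte gene expression. The RefSeq windows on GRCm38.p6 run from 250 bases before to 50 after the start site, 5′ to 3′ on the gene's own strand, and capitals mark each match to either motif on either strand. The windows are chr7:23385639-23385938 on the plus strand for Nlrp5, chr9:78378539-78378838 on the minus strand for Ooep, chr4:140742594-140742893 on the minus strand for Padi6 and chr13:95323355-95323654 on the plus strand for Zbed3.
Nlrp5: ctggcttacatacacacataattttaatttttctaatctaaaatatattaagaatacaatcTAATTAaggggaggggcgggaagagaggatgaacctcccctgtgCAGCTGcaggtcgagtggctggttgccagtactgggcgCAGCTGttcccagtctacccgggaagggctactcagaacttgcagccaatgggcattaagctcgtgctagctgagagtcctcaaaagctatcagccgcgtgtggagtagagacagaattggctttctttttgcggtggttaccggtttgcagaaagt
Ooep: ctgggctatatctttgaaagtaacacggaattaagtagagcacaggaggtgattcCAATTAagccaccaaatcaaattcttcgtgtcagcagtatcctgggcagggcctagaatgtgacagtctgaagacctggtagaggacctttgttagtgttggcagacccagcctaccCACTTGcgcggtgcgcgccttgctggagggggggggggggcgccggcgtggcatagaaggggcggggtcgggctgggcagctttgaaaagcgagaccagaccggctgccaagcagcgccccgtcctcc
Padi6: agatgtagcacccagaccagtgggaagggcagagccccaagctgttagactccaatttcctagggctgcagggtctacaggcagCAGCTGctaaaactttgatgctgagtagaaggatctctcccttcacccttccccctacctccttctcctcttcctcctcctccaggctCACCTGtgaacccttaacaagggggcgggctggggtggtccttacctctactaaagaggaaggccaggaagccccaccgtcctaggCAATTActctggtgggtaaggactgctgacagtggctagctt
Zbed3: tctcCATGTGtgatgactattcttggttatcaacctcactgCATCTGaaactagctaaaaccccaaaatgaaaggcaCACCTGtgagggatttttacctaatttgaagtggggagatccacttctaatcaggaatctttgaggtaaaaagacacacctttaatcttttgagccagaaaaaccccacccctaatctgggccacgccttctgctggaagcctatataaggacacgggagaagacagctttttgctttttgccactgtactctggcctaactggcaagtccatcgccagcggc
Counting for each member only the window nearest its annotated 5′ end, a NOBOX element was found in 3 of 7. It lay at -189 from the start site in Nlrp5, at -195 in Ooep and at +9 in Padi6. Of 32851 promoters of the same length, 12.4% held one. An E-box was found in 6 of 7, all but Nlrp2, against 72.3% of those promoters. Those promoters include further windows of the same gene. Over all 11 windows of the members, 3 held a NOBOX element and 10 an E-box. The matches shown did not overlap each other. They describe letters only, and no binding was measured.

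The libraries held 15149564 to 29205503 counts in the microdissected set and 8652089 to 9978830 in MII. The 8 oocyte markers (such as Ddx4, Zp3 and Gdf9) summed to 5908 to 8028 CPM (counts scaled to a library total of 1000000) in MII and to 1.93 to 1335 in the microdissected libraries. The lowest was primordial NTY replicate 3, where 2 of these 8 markers reached 10 counts. The 11 granulosa markers summed to 482 to 4217 CPM in the microdissected libraries and 89.2 to 178 in MII. For the 6 stroma markers the sums were 1376 to 17910 CPM and 0 to 2.91, and Col1a2, Col3a1 and Lum were at 0 in all 6 MII libraries. The granulosa markers went both ways. Amhr2, Foxl2, Fst and Wt1 were at 0 in all 6 MII libraries, whereas Cyp19a1 was at 28.6 to 68.7 CPM in MII and at 0 in 11 of 12 microdissected libraries, and Esr2 at 35.6 to 74.8 CPM against 0 to 9.35. In MII against primary sham 2 granulosa markers (Fshr and Cyp19a1) were called higher and 5 lower. The shares of all genes tested were 32.4% and 19%. The 4 endothelium markers summed to 0.0430 to 831 CPM in the microdissected libraries and 109 to 173 in MII, and the 4 immune markers to 0 to 33.9 and 15.7 to 49.9. The follicle libraries thus held transcripts of granulosa and stroma genes beside those of oocytes, and in bulk samples fewer oocytes and less RNA per oocyte cannot be told apart. The part of these differences in the results below was not tested.

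All 7 members were detected with at least 25 counts in every MII library, but their levels spanned a wide range. By median TPM over the 6 MII libraries the order was Zbed3 with 27776, Padi6 with 334, Nlrp5 with 223, Tle6 with 172, Ooep with 92.1, Nlrp2 with 82.5 and Khdc3 with 23.3. Zbed3 stood apart, with a median 83.2 times that of Padi6 and no overlap of their ranges. The ranges of all other neighbours in this order overlapped. Padi6 was nevertheless above Nlrp5 in 6 of 6 libraries and Tle6 above Ooep in 5 of 6, whereas Nlrp5 exceeded Tle6, Ooep exceeded Nlrp2 and Nlrp2 exceeded Khdc3 in 4 of 6 each. In the 12 microdissected libraries Zbed3 had a median of 20.9 TPM, Padi6 13.4, Nlrp5 9.43, Tle6 4.49, Ooep 3.02 and Khdc3 1.35, and the median of Nlrp2 was 0. There Zbed3 was above Padi6 in 5 of 12 libraries, so the place of Zbed3 at the head of the order was not a stable one in follicle oocytes.

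**Figure D1:**
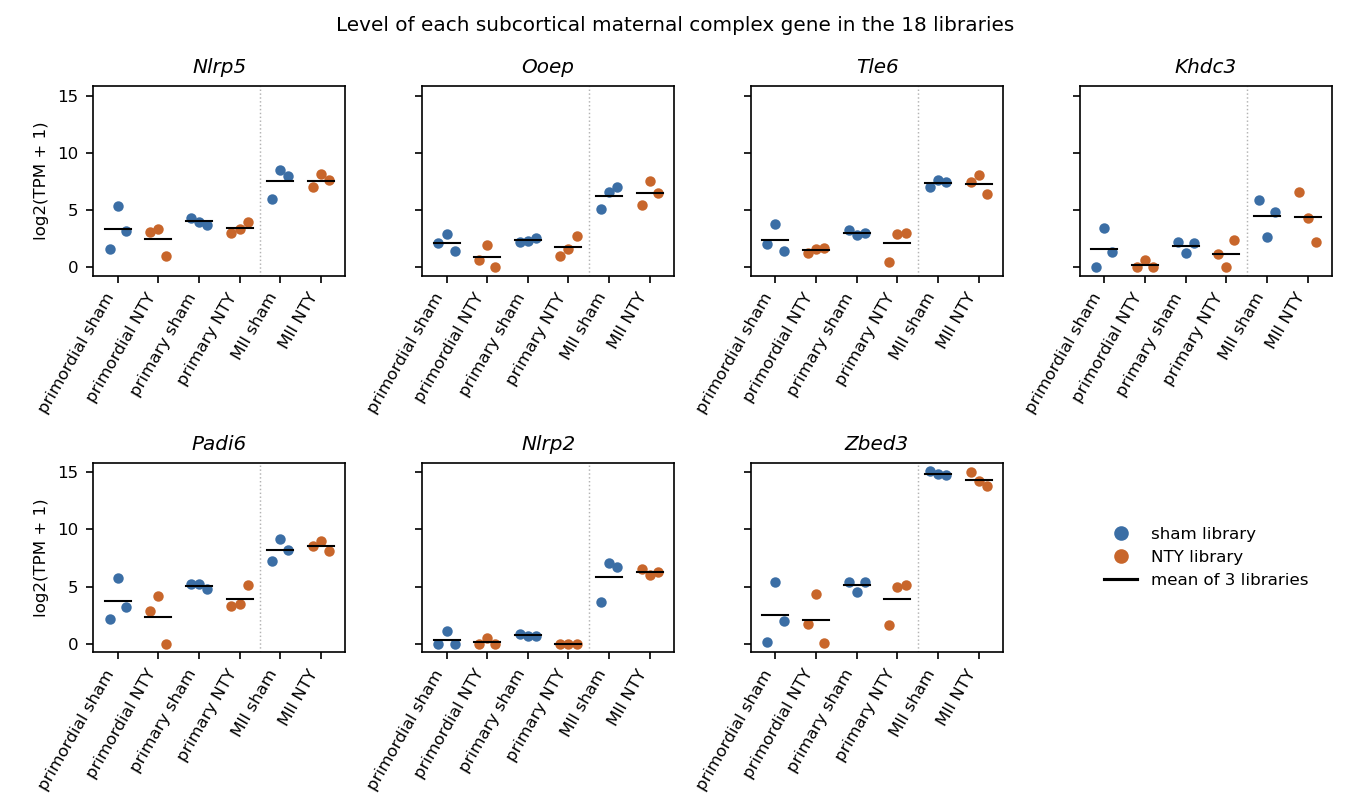
Level of each member gene as log2(TPM + 1) on the y axis in each of the 18 libraries, by stage and treatment on the x axis. Points are libraries (blue sham, orange NTY), bars are means of 3 libraries, and the dotted line parts microdissected libraries from MII. Zbed3 lies between 14232 and 34839 TPM in MII and at or below 42.3 TPM elsewhere, and Nlrp2 is at 0 in all 3 primary NTY libraries.

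The members were higher in MII oocytes than in oocytes of primary follicles. Among sham libraries 6 of 7 passed the test (edgeR quasi-likelihood, Benjamini-Hochberg adjusted p under 0.05 over 13139 genes), all upward, where 32.4% of all genes tested were called higher, 19% lower and 51.4% in either direction. With all 18 libraries in 1 fit the call was kept by Zbed3 alone, a count of 1. In CPM the groups did not overlap for 7 of 7 members, against 47.3% of genes tested that were wholly higher in MII. The members' median log2 fold change was 3.87, with a range of 2.86 to 9.47, and that of all genes tested was 0.59. With RLE normalization all genes tested had a median of 0.90 and with plain library totals of 1.18, and the members stayed above it at 4.05 and 4.54.

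Zbed3 showed the largest difference of the members among sham libraries. Its level was 41.0, 22.1 and 40.1 TPM in primary sham replicates 1 to 3 and 34839, 28707 and 26845 TPM in the 3 MII sham libraries. Every MII library was far above every primary one, and the log2 fold change was 9.47 (SE 0.46, adjusted p = 0.000481). In MII Zbed3 took 1.25% to 3.43% of all counts and ranked 1 to 3 among all genes by count. The lowest of the 6 MII libraries was 337 times the highest of the 12 microdissected ones in TPM. Small nucleolar RNA genes within its introns, Snora47 and Gm22661, share no exonic base with it and had at most 16 counts in an MII library.

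The core genes differed by less. Nlrp5 was at 18.7, 14.8 and 12.3 TPM in primary sham and at 62.4, 371 and 255 TPM in MII sham. MII replicate 1 was the low library of its group but still above every primary one, and the log2 fold change was 3.41 (SE 0.67, adjusted p = 0.00555). Tle6 was at 8.62, 5.95 and 6.93 TPM in primary sham and at 131, 191 and 172 TPM in MII sham. Its highest and lowest libraries differed by a factor of 1.45 within each of these groups, and its log2 fold change was 4.14 (SE 0.65, adjusted p = 0.00432). Ooep was at 3.66, 3.96 and 4.95 TPM in primary sham and at 32.9, 97.1 and 130 TPM in MII sham. Again MII sham replicate 1 was lowest of its group, and the log2 fold change was 3.87 (SE 0.94, adjusted p = 0.0119). The Ooep call was lost without MII sham replicate 2 or replicate 3. Khdc3, the remaining core gene, was the member that missed the threshold. It was at 3.67, 1.42 and 3.28 TPM in primary sham and at 56.7, 5.12 and 27.8 TPM in MII sham. The groups did not overlap, but the MII libraries spread widely, and its log2 fold change of 3.27 had an SE of 1.26 (adjusted p = 0.0654, and 0.00136 to 0.454 under the other settings).

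Padi6 and Nlrp2 completed the set. Padi6 was at 35.3, 37.3 and 26.7 TPM in primary sham and at 152, 584 and 286 TPM in MII sham, so that the groups did not overlap. Its log2 fold change of 2.86 was the smallest among the members (SE 0.62, adjusted p = 0.00771), and it missed the threshold without MII sham replicate 2. Nlrp2 was near its detection limit in primary sham, at 0.825, 0.603 and 0.567 TPM from 20, 16 and 16 counts. In MII sham it was at 11.7, 134 and 103 TPM, with replicate 1 again the low library and still above every primary one. Its log2 fold change was 6.43 (SE 1.19, adjusted p = 0.00443).

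The same contrast among NTY libraries placed every member on the same side, with 7 of 7 groups not overlapping in CPM against 49.6% of genes tested. Only Zbed3 and Nlrp2 passed the test, however, where 29.3% of 10698 genes were called higher and 37% were called in either direction. The count of 2 was 4 with voom and with primary NTY replicates 2 and 3 summed, 6 with plain library totals and with both limma fits of TPM, and 7 with DESeq2. These counts are not set against the share of all genes called under each setting, which is not given here. With plain library totals 64.8% of all genes tested had a log2 fold change above 0, with a median of 2.21. The members' median log2 fold change was 4.21, against 1.10 for all genes tested. Zbed3 was at 2.09, 30.4 and 33.8 TPM in primary NTY and at 32264, 19629 and 14232 TPM in MII NTY. Primary replicate 1 was the low library, and the log2 fold change was 9.02 (SE 1.30, adjusted p = 0.0121). Nlrp2 had 0 counts in all 3 primary NTY libraries, which allows up to 0.129 CPM in the shallowest of them, and 1087, 791 and 886 counts in MII NTY. Its MII mean of 104 ± 19.9 CPM (SD, n = 3) was thus at least 806-fold higher (edgeR adjusted p = 0.0121), with the floor set at 3 counts in the shallowest library.

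The other 5 members had log2 fold changes of 3.33 to 4.31 among NTY libraries, with adjusted p of 0.0634 to 0.216. Nlrp5 was at 6.93, 9.44 and 14.7 TPM in primary NTY and at 128, 280 and 191 TPM in MII NTY. Ooep was at 0.941, 2.03 and 5.60 TPM in primary NTY and at 42.7, 189 and 87.1 TPM in MII NTY. For both genes every MII library lay above every primary one, as it did for the next pair. Tle6 was at 0.367, 6.66 and 7.03 TPM in primary NTY and at 172, 260 and 83.5 TPM in MII NTY. Padi6 was at 8.84, 9.78 and 34.0 TPM in primary NTY and at 382, 509 and 272 TPM in MII NTY. Khdc3 was the exception on the TPM scale, at 1.29, 0 and 4.20 TPM in primary NTY and at 96.5, 18.7 and 3.59 TPM in MII NTY, where the lowest MII library fell below the highest primary one. The number of members that passed rose to 4 without primary NTY replicate 3 and to 3 without replicate 2. Whether the difference between MII and primary was unlike in NTY and sham was not tested.

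**Figure D2:**
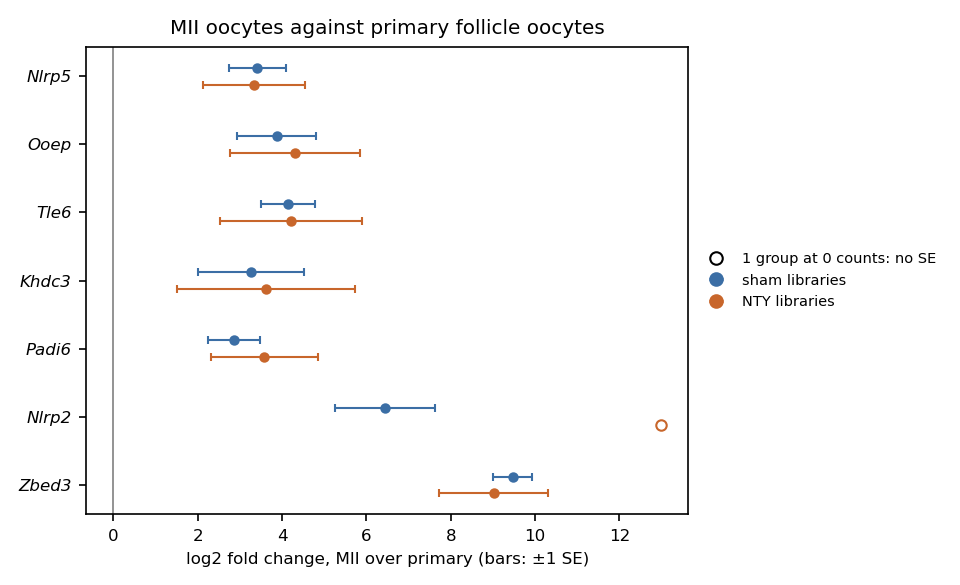
Log2 fold change of each member gene, MII over primary follicle oocytes, on the x axis, for sham (blue) and NTY (orange) libraries. Points are edgeR estimates with bars of ±1 SE, and the open point marks Nlrp2 in NTY, where the primary libraries are at 0 counts and no SE is given. All 14 points lie above 0, from 2.86 for Padi6 in sham upward.

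Partners of the complex and of the lattices showed both directions in this contrast. Among sham libraries 5 of 8 partner genes were called higher in MII and 1 lower (edgeR, same test), with a median log2 fold change of 3.68. The shares of all genes tested were 32.4% and 19%. Nlrp4f, an NLR family gene of the complex, had a log2 fold change of 8.89 (SE 0.60, adjusted p = 0.000513), and Uhrf1, which guides maintenance of DNA methylation, of 4.17 (SE 0.65, adjusted p = 0.00432). The F-box genes Fbxw18 and Fbxw24 and the NLR gene Nlrp14 were also called higher. Skp1, the adaptor that F-box proteins bind, was lower by 2.63 on the log2 scale (SE 0.34, adjusted p = 0.00312), whereas Ube2d3 and Dnmt1 did not pass. Nlrp4f, Fbxw18 and Fbxw24, like the Khdc1 genes below, belong to multicopy families, so their reads may be shared with close copies. Among NTY libraries 4 of 8 partners were called higher and 0 lower, against 29.3% and 7.67% of genes tested.

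The other lists gave context for the members. Of 8 other maternal-effect genes, 5 were called higher in MII sham and 1 lower (edgeR). Of all genes tested in sham, 32.4% were called higher and 19% lower, also for the lists that follow. Btg4, which links maternal mRNA to deadenylation, had a log2 fold change of 11.98 (SE 1.17, adjusted p = 0.00133), and Dppa3, which protects the maternal genome from demethylation, of 10.74 (SE 0.72, adjusted p = 0.000513). Smarca4, the ATPase of a chromatin remodeller, was lower by 3.55 on the log2 scale (SE 0.47, adjusted p = 0.00339). Among family relatives the Groucho genes Tle1, Tle2, Tle3 and Tle4 were called lower in MII sham, opposite in direction to Tle6. Padi1, Padi2, Khdc1a, Khdc1b and Khdc1c were called higher, and Tle5 and Dppa5a did not pass. The Padi1 call rested on 6 to 21 counts in MII sham against 0 in primary sham. Padi1 was also at 0 in 2 of 3 MII NTY libraries. The primary libraries also held transcripts of granulosa and stroma genes, whose part in these calls was not tested. The relatives Padi3 and Padi4 were too low to be tested, as were Figla and Sohlh1 among the oocyte transcription factors. Of the 5 transcription factors tested, Nobox (log2 fold change 5.30, SE 0.89, adjusted p = 0.00432) and Sohlh2 (5.21, SE 1.70, adjusted p = 0.0375) were called higher, and Lhx8, Taf4b and Tbpl2 did not pass. In NTY 4 of the 8 other maternal-effect genes, 1 transcription factor and 2 relatives were called higher, against 29.3% of genes tested, and 3 relatives lower, against 7.67%. The 8 oocyte markers had a median log2 fold change of 1.31 with 3 called higher in sham (Zp3, Gdf9 and Bmp15) and of 1.04 with 2 called higher in NTY (Gdf9 and Bmp15). Summed CPM of the members without Zbed3 was also divided by that of these markers. Libraries of primary follicles had ratios of 0.0696 to 0.179 (sham) and 0.0271 to 0.158 (NTY). Those of MII oocytes had 0.0929 to 0.216 (sham) and 0.154 to 0.191 (NTY). Without Zbed3 the MII and primary ranges thus overlapped within each treatment. With Zbed3 the members summed to 23115 to 34865 CPM in MII sham, above the markers at 6271 to 7752. In primary sham they summed to 82.8 to 91.3 CPM, below the markers at 370 to 933. The members' sums with Zbed3 were 13365 to 29237 CPM in MII NTY and 22.3 to 87.2 in primary NTY. Gdf9 alone made up 4458 to 5657 CPM of the markers in MII sham. The part of oocyte content in the members' difference was not tested.

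Between primordial and primary follicles no member passed the test in either treatment (edgeR, 0 of 7, against 0.0095% of 10522 genes tested in sham and 0% in NTY). No member had an unadjusted p under 0.05, which 9.28% of genes had in sham and 9.97% in NTY, and DESeq2 and limma called 0 as well. Among sham libraries 4 members had positive and 3 negative log2 fold changes, from -0.76 to 0.88, where 55.4% of all genes tested were above 0. Their median of 0.04 changed sign with RLE normalization and with DESeq2, to -0.24 in each. The spread lay in the primordial sham group, where Nlrp5 was at 2.06, 39.5 and 8.01 TPM, Padi6 at 3.60, 53.6 and 8.40 TPM and Zbed3 at 0.0950, 42.3 and 2.92 TPM. In each case replicate 2 was the high library, and this library also had the highest oocyte marker sum of the microdissected set, 1335 CPM against 206 and 604 in its group. Without it the members' median log2 fold change was 1.47.

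Among NTY libraries 6 members had positive log2 fold changes from primordial to primary and Nlrp2 a negative one, where 51.5% of all genes tested were above 0. The members' median was 1.58 against 0.08 for all genes tested. The 8 oocyte markers had a median of 1.53 in the same contrast. Ooep was at 0.558, 2.77 and 0 TPM in primordial NTY and Tle6 at 1.40, 2.10 and 2.30 TPM. Primordial NTY replicate 3 had 4 of 7 members at 0 counts, and it was also the library nearly without oocyte markers. Even so the primordial and primary NTY CPM overlapped for all 7 members, as they did for all but 7.12% of genes tested.

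NTY against sham in primordial follicles called 0 of 7 members (edgeR, against 0.0095% of genes tested), with none at an unadjusted p under 0.05, which 10.9% of genes had, and 0 by DESeq2 and limma. All 7 log2 fold changes were negative, with a median of -1.70 against 0.12 for all genes tested, of which 51.7% were above 0. The 7 values stayed negative with RLE normalization and with plain library totals. Estimates ran from -1.32 for Zbed3 (SE 2.85) and -1.39 for Tle6 (SE 2.71) through -1.60 for Nlrp5 (SE 2.75), -1.70 for Nlrp2 (SE 2.48), -1.74 for Padi6 (SE 2.84) and -2.01 for Ooep (SE 2.59) to -4.55 for Khdc3 (SE 2.97). Each SE exceeded the size of its estimate except that of Khdc3, and adjusted p ranged from 0.604 to 0.940. In counts, Padi6 had 43, 1156 and 137 in sham and 103, 306 and 0 in NTY. Nlrp5 had 47, 1629 and 250 in sham and 245, 324 and 36 in NTY. The groups overlapped for both genes and for every other member, where 7.96% of genes tested did not overlap. Khdc3 had 0, 170 and 20 counts in sham and 0, 8 and 0 in NTY.

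Negative values were also found for most oocyte markers. The 8 oocyte markers had a median log2 fold change of -2.06 in the same contrast, with 7 of 8 negative, and the 8 partner genes one of -2.07 with all 8 negative. The 7 members summed to 11.1, 145 and 23.9 CPM in primordial sham and to 18.4, 44.5 and 3.44 CPM in primordial NTY. The oocyte markers summed to 206, 1335 and 604 CPM and to 243, 476 and 1.93 CPM, so the same libraries were highest and lowest for both sets. The sizes differed, however. The ratio of summed CPM, members without Zbed3 over markers, was 1.77 in NTY replicate 3. It was 0.0698 and 0.0657 in NTY replicates 1 and 2. Tle6 was highest of the NTY group in replicate 3, at 56 counts against 29 and 46. The part of oocyte content in the members' values was not tested. Stroma markers summed to 1467, 1376 and 8092 CPM in sham and to 4818, 2809 and 12988 CPM in NTY. Without primordial sham replicate 2 the members' median log2 fold change was 0.11, with Nlrp5 at 0.11, Padi6 at 0.11, Zbed3 at 1.99 and Nlrp2 at 4.57. Ooep and Khdc3 stayed negative without it, at -1.40 and -2.26, and Tle6 was at -0.06.

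**Figure D3:**
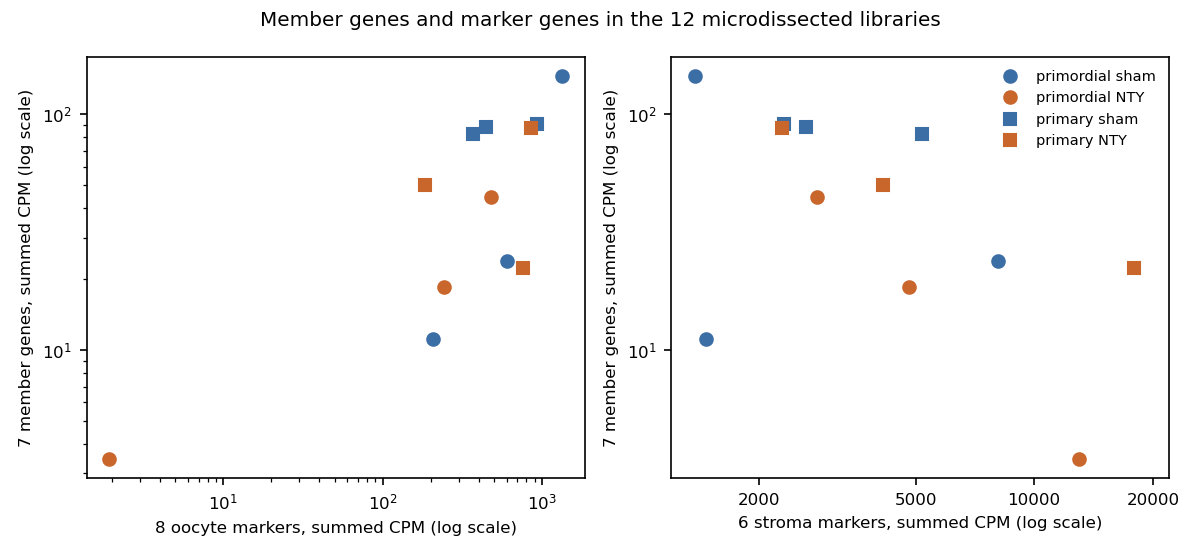
Summed CPM of the 7 member genes (y axis, log scale) against those of 8 oocyte markers (left) and 6 stroma markers (right, both x axes on log scales) in the 12 microdissected libraries. Each point is a library, circles primordial, squares primary, blue sham and orange NTY. Primordial NTY replicate 3 lies at the lower left of the left panel with 1.93 CPM of oocyte markers and 3.44 CPM of members, and primordial sham replicate 2 at the upper right with 1335 and 145 CPM.

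In primary follicles NTY against sham called 0 of 7 members (edgeR, against 0% of genes tested, where 8.15% had an unadjusted p under 0.05), and DESeq2 and limma called 0 as well. All 7 log2 fold changes were negative with TMM normalization, but 5 of 7 were positive with RLE normalization and with DESeq2, and 48.2% of all genes tested were above 0. Their median was -0.14 and that of all genes tested -0.10, so that 6 of the members sat close to the centre of the contrast with SEs of 2.49 to 2.80. The sham group was tight and the NTY group loose. Tle6 had 184, 139 and 172 counts in sham and 9, 147 and 174 in NTY, and Ooep had 54, 64 and 85 in sham and 16, 31 and 96 in NTY. Primary NTY replicate 1 was the low library for both genes and for Zbed3, which had 37 counts there against 485 and 604 in the other NTY libraries. It also had the highest stroma marker sum of the set, 17910 CPM, but its oocyte markers, at 764 CPM, were within the range of the sham group. Without it the members' median was 0.12.

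Nlrp2 was the only member whose groups did not overlap here. This share of 1 of 7 was near that of all genes tested in the lower direction. It had 20, 16 and 16 counts in primary sham and 0 in all 3 primary NTY libraries, so that the groups did not overlap, as was the case in the lower direction for 13.8% of genes tested and in the higher direction for 1.24%. Fewer genes had any count in the primary NTY libraries, 7474 to 10255 against 10565 to 13755 in primary sham, and the part of this in the result was not tested. The sham mean of 0.743 ± 0.0816 CPM (SD, n = 3) was at least 5.76-fold higher than the floor of 3 counts in the shallowest NTY library. The unadjusted p was 0.0265 and the adjusted p 0.507 by edgeR over all genes, 0.295 to 0.770 over the other settings that gave one, so the difference did not pass. In the primordial libraries Nlrp2 was at 0 counts in 4 of 6 (33 counts in sham replicate 2, 10 in NTY replicate 2), and few counts limit what can be seen of this gene before MII. The difference between the NTY effect in primary and in primordial follicles was called for 0 of 7 members (edgeR, none at an unadjusted p under 0.05 and 0 by DESeq2 and limma, against 0.0095% of genes tested).

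In MII oocytes no member was called between NTY and sham (edgeR, 0 of 7, against 0% of 12209 genes tested, of which 2.29% had an unadjusted p under 0.05), none of the 7 had an unadjusted p under 0.05, and DESeq2 and limma called 0. The log2 fold changes were -0.07 for Nlrp5 (SE 0.48), 0.36 for Ooep (SE 0.55), 0.05 for Tle6 (SE 0.35), 0.23 for Khdc3 (SE 1.15), 0.28 for Padi6 (SE 0.38), 0.07 for Nlrp2 (SE 0.62) and -0.48 for Zbed3 (SE 0.36). All adjusted p were 1.00, and the groups overlapped for all 7, where 8.31% of genes tested did not. Positive values were found for 5 of 7 members and for 50.3% of genes tested. These SEs were smaller than in the follicle libraries, where the common dispersion was 3.59 against 0.54 in MII. For Zbed3, the member with the largest difference from 0 here, the MII sham mean was 30130 ± 4183 TPM and the NTY mean 22042 ± 9255 TPM (SD, n = 3 each). Leaving out each MII replicate gave log2 fold changes of -0.89 (without NTY replicate 1) to -0.16 (without sham replicate 1) for Zbed3. NTY replicate 1, at 32264 TPM, lay within the sham range and the other NTY libraries below it.

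**Figure D4:**
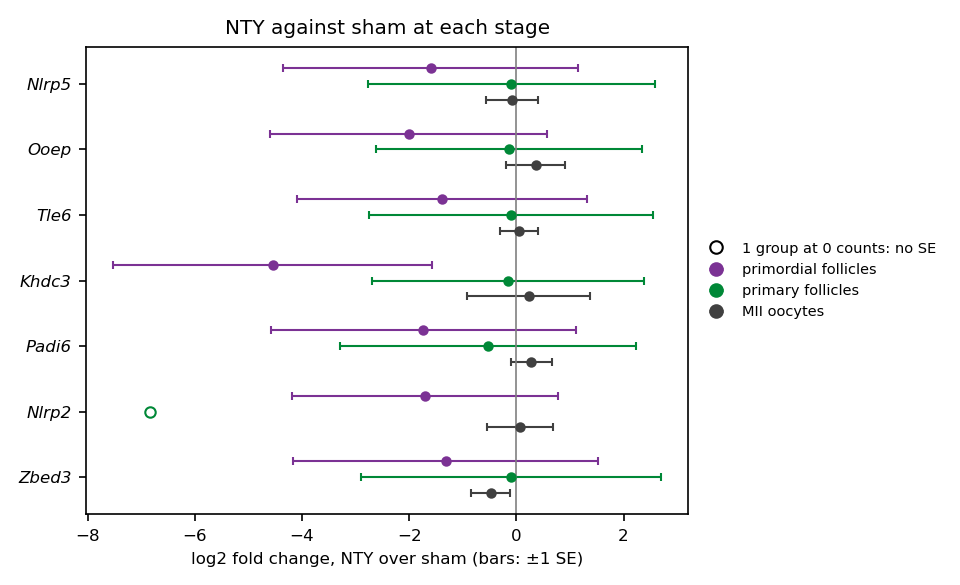
Log2 fold change of each member gene, NTY over sham, on the x axis, in primordial follicles (purple), primary follicles (green) and MII oocytes (grey). Points are edgeR estimates with bars of ±1 SE, and the open point marks Nlrp2 in primary follicles, where the NTY libraries are at 0 counts. Bars span several log2 units in follicles and cross 0 or lie near it in MII, where estimates run from -0.48 to 0.36.

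Within MII the members did not vary as a single block. Khdc3 had the widest range, 3.59 to 96.5 TPM, a ratio of 26.8 between its highest and lowest library. Nlrp2 had a ratio of 11.4, Nlrp5 of 5.94, Ooep of 5.75, Padi6 of 3.84, Tle6 of 3.11 and Zbed3 of 2.45. MII sham replicate 1 was the lowest library for Nlrp5, Ooep, Padi6 and Nlrp2 and at the same time the highest for Zbed3. This library also had the highest share of mitochondrial counts of all 18, 8.15% against 1.73% and 2.06% in the other MII sham libraries and 3.04%, 3.19% and 6.49% in MII NTY, and the part of this in the result was not tested. Khdc3 was highest in NTY replicate 1 and sham replicate 1 and lowest in NTY replicate 3 and sham replicate 2. The neighbouring Gm20509 had 453, 46 and 203 counts in MII sham and 646, 148 and 42 in MII NTY, close to the 491, 37 and 186 and the 676, 133 and 25 of Khdc3. Across the 6 MII libraries 13 of 21 member pairs correlated positively and 8 negatively (Pearson's r of log2(TPM + 1), -0.64 to 0.86). Nlrp5 correlated with Ooep at 0.86, with Nlrp2 at 0.85 and with Padi6 at 0.83, whereas Khdc3 and Zbed3 each had negative values with 4 of the 6 others. In the 12 microdissected libraries all 21 pairs were positive, with a median r of 0.72. The libraries of each set also differ in depth and in their sums of oocyte markers, whose part in these values was not tested, and the correlations are descriptions over 6 and 12 points.

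**Figure D5:**
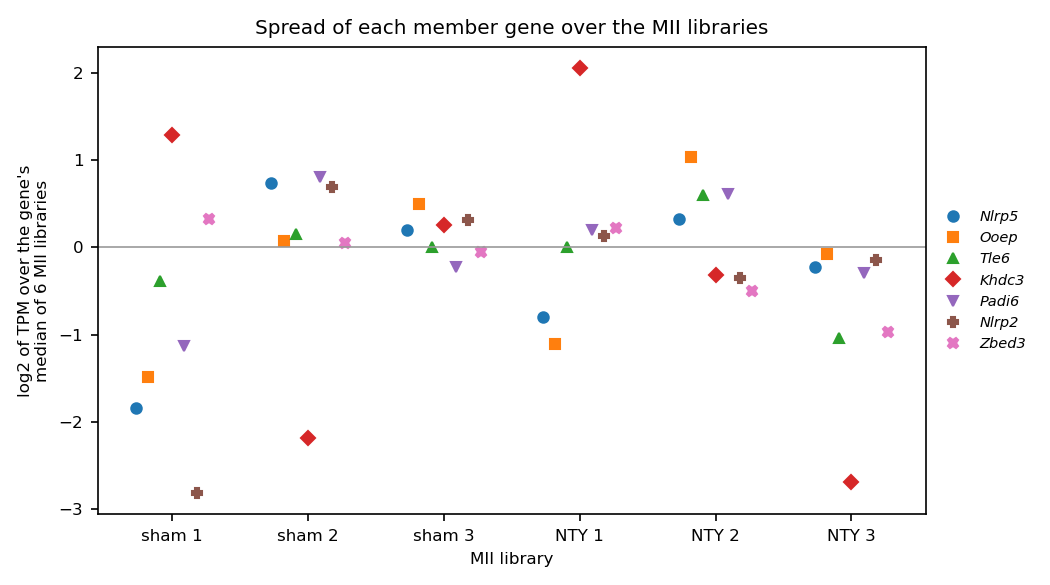
Level of each member gene in each MII library (x axis) as log2 of its TPM over the gene's own median of the 6 MII libraries (y axis). Each symbol is a member gene. Khdc3 has the widest spread, from 3.59 to 96.5 TPM, and in sham replicate 1 Nlrp5, Ooep, Padi6 and Nlrp2 lie below their medians while Khdc3 and Zbed3 lie above.

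Over all 18 libraries the genes whose log2(TPM + 1) was most like the mean of the 7 standardized member profiles were Ldhb (Pearson's r = 0.989), Khdc1b (0.986), Fam241b (0.985), Pdcd2l (0.985) and Oas1e (0.984). The measure includes the step between microdissected and MII libraries. Candidates were genes with a mean TPM of at least 10 in MII, where the members are high. Among these 6311 genes a high r was common, with 1867 over 0.9. Within the 12 microdissected libraries these genes had r of 0.91, 0.97, 0.89, 0.87 and 0.91. Within the 6 MII libraries the values were 0.93, 0.22, 0.56, 0.92 and 0.83 in the same order. These genes were chosen for their r over the same libraries, so the values within each set only describe them.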

How the data were processed

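Counts and TPM were taken from bulk RNA-sequencing tables of 18 libraries, grouped by the stage and treatment in their labels. Raw read counts for each gene were deposited by the authors as whole numbers. The TPM values that the authors deposited beside them are scaled for gene length. The submitters' processing notes name Trim Galore 0.4.1, TopHat2, featureCounts and mm10. Their settings, the strand setting and the lengths behind the TPM are not given in the sources used here. The libraries held 8652089 to 29205503 counts, and limits from 3 counts cover counting error only. No replicate pair agreed within sampling noise.

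Differences were tested in R 4.3.3 with edgeR 4.0.16 (quasi-likelihood, robust, TMM, filterByExpr, no replicate block), fitted on all genes, and p was adjusted by Benjamini-Hochberg with a threshold of 0.05. Microdissected libraries (12) and MII libraries were fitted apart, and MII was tested against primary within each treatment. All 7 members passed the filter on low counts in each of these fits. Alternatives were RLE and plain totals, DESeq2 1.42.0 without its Cook filter, limma 3.58.1 with voom or on log2(TPM + 1) and log2(TPM + 0.1), a filter on any count, other sets of libraries, a replicate block, a sum of primary NTY replicates 2 and 3 and leaving out each replicate. Scripts were tested on simulated counts with a smaller dispersion than that of any fit here, which does not measure the power of these tests. All 7 members were named in each comparison, and other genes from lists of partners, relatives, transcription factors, maternal-effect genes and markers. The members and lists were chosen with earlier results of these data known. Genes most like the members had a TPM of at least 10 in MII. Motifs were searched in Python 3.11.15.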

Additional observations from a re-analysis of the deposited data

How the results depend on the processing

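The count of 0 members in NTY against sham at each stage, between follicle stages and in the difference of the NTY effects held under every alternative run, and leaving out each replicate gave 0 to 0. For MII against primary in sham the count of 6 was 5 to 7 under the others but 1 with all 18 libraries in 1 fit, and 4 to 6 when each replicate was left out. In NTY the count of 2 was 6 with plain library totals, 7 with DESeq2, 4 with voom, 6 with limma on log2(TPM + 1), 6 on log2(TPM + 0.1), 4 with primary NTY replicates 2 and 3 summed (their library codes are alike) and 2 to 4 when each replicate was left out. The share of all genes called under each alternative is not given here, so these counts are not set against it. The causes were not tested. The TPM fits of follicle libraries left out Nlrp2, and the fit of the primordial groups alone tested 5 members.

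Estimates that changed sign lay near 0 or rested on few libraries. In primordial follicles Zbed3 was 0.23 with voom, and leaving out each replicate gave -2.12 to 0.11 for Nlrp5, -2.90 to 0.11 for Padi6, -6.25 to 4.57 for Nlrp2 and -3.76 to 1.99 for Zbed3, positive without sham replicate 2. In MII NTY against sham, Nlrp2 was -0.0203 with plain totals and -0.0131 with voom. On log2(TPM + 1) Nlrp5 was 0.0662, Tle6 -0.0678 and Khdc3 -0.0696, and on log2(TPM + 0.1) they were 0.0687, -0.0691 and -0.10. Leaving out each MII replicate gave -0.48 to 0.33 for Nlrp5, -0.20 to 0.74 for Ooep, -0.28 to 0.34 for Tle6, -1.69 to 1.39 for Khdc3, -0.42 to 0.50 for Nlrp2, 0.0152 to 0.75 for Padi6 and -0.89 to -0.16 for Zbed3.

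Same-numbered libraries did not deviate together (mean correlation of deviations from -0.04 to 0.01 over the pairs of groups). The labels give only a shared number. With replicates this far apart, the correlations could not exclude a shared source. With the replicate block, 5 members were called in MII against primary in sham, 2 in NTY and 0 elsewhere, and the MII NTY estimates of Nlrp5 and Tle6 were 0.0899 and -0.0425. Nlrp2 was at 0 counts in 7 and Khdc3 in 4 of the 12 microdissected libraries, although these were deeper than the MII libraries, and the cause was not tested.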
